A study of Arabidopsis thaliana with 12 samples.

Results

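The transcripts described here are those of 42 genes whose probes gave a higher normalized signal with staurosporine than with water in each of 3 array pairs, out of 691 genes that have a probe of their own among the 3439 probes of the array. Staurosporine is a microbial alkaloid that blocks the ATP site of many protein kinases and so reduces the phosphorylation of a wide range of proteins. In plants, protein kinases pass on signals from hormones, light, wounding and pathogens, and kinase inhibitors are used to ask which transcript levels depend on phosphorylation. The genes were not chosen by pathway, and those whose role is stated here include factors of organelle and nuclear RNA processing, signalling proteins, plastid enzymes and proteins of the secretory pathway.

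Total RNA of wild-type Arabidopsis thaliana, ecotype Columbia 0, was hybridised to 12 arrays, 6 in each group. The pStau group had 4 h in water and then 4 h with 25 mM staurosporine at pH 5.5, as the labels give the dose, and the H2O group had 8 h in water. All plants shared the strain and at least 4 h in water. The time in water, 4 h against 8 h, goes with the drug, and a pH is given for pStau alone, so effects of the drug, the water time and the pH cannot be told apart. The labels name no tissue, age or pooling. Of 17 marker genes listed for leaf, root, guard cell and pollen, 2 of the 7 leaf markers and none of the other lists had a probe of their own, so the tissue was not checked beyond that.

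Members were chosen on the measured values. Of 692 probes paired with exactly 1 gene, 530 were above 0 on all 12 arrays, and 460 of these remained after the brightest 10% of the 692 by mean intensity in H2O were set aside. The positive values of all arrays were brought to one common distribution (quantile normalization) and put on a log2 scale. A probe was kept if the mean of the pStau arrays exceeded that of the H2O arrays by 0.3 or more in each of the pairs numbered 1 with 2, 3 with 4 and 5 with 6, which 48 of the 460 did, or 10.4%. By name, 8 genes were then left out, of which 6 had met these numbers, and 42 probes of 42 different genes remained. Since this contrast chose the members, their differences are given as a description, and the count of members called in the fit to the whole table supports nothing about them. Whether a lower signal reflects fewer cells of a type or less RNA per cell cannot be told apart in such samples.

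The change of most probes depended on normalization. On the deposited scale the median intensity of the 460 eligible probes was between 0.188 and 0.454 on pStau arrays and between 0.471 and 0.543 on H2O arrays. The median over the 42 members was between 0.252 and 0.426 on pStau arrays and between 0.294 and 0.378 on H2O arrays. The group ranges thus overlapped for the members, while for the eligible probes every pStau array was below every H2O array. The median log2 change of the members was 0.76 after normalization and 0.080 as deposited, against -0.06 and -0.78 for the 460 eligible probes. All 42 members lay above the eligible median on the deposited scale, by 0.32 to 1.62. Their choice on the same arrays made this likely in advance, so it is a description only. As deposited, 24 members had a higher mean in pStau and 18 a lower one, where 62 of the 460 eligible probes had a higher one. The counts of higher deposited means by role below divide these 24 members, and differences between roles were not tested. Roles were assigned to the members only, so the share of each role among the 460 eligible probes is not known. The size of a role group is thus no result about the members. The sources used here do not state the scaling. Thus "higher" below means higher relative to the other probes of the array unless the deposited scale is named.

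**Figure D1:**
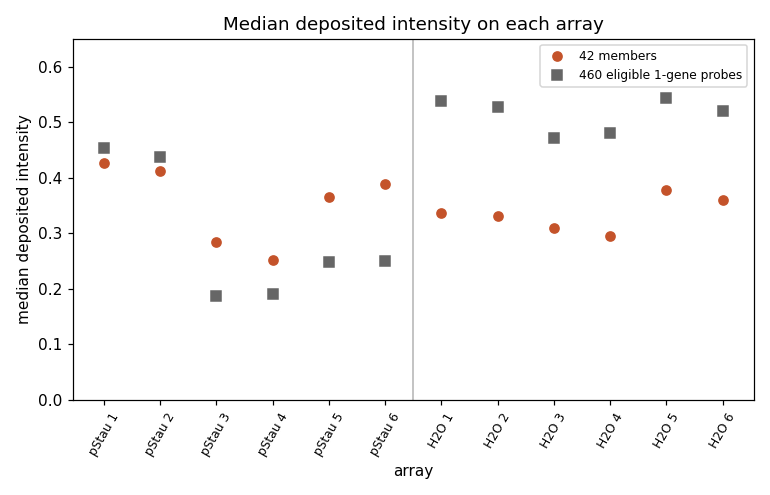
Median deposited intensity on each array (y axis, linear) for the 42 members (circles) and the 460 eligible probes with 1 gene (squares), with pStau arrays left of H2O arrays. The squares lie between 0.188 and 0.454 on pStau arrays, all below the 0.471 to 0.543 of H2O arrays, whereas the circles of the groups overlap.

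After normalization the changes of the 42 members ran from 0.44 to 1.79 on the log2 scale, which is 1.36-fold to 3.46-fold, and 7 were at least 2-fold, against 15 of all 460 eligible probes, or 3.26%. Every pStau array was above every H2O array for 23 members, where 8.48% of the eligible probes showed this. Compared between arrays of the same number, 41 members were higher in pStau in all 6 pairs, against 19.6% of the eligible probes, and CSLA01 was higher in 5. In limma's fit to the whole table with Benjamini-Hochberg adjustment, 37 members passed as higher at an adjusted p under 0.05, where 16.5% of the 3256 probes tested and 19.1% of the eligible probes did. These shares restate the choice of members and are read no further. The 5 that did not pass were GLR2.7, PRA1.B3, AT3G57630, CSLA01 and AT3G50350, and these also passed with the replicate number as a block, where all 42 did and 18.4% of the probes tested were higher. Consecutive arrays of a group were alike (Pearson's r across probes of 0.910 to 0.970 in pStau and 0.955 to 0.986 in H2O, against 0.863 to 0.883 and 0.918 to 0.929 for other arrays), and 20 members passed when each such pair was treated as a random block, where 7.99% of all probes tested were higher. When each pair was averaged 0 members passed, and 0.0307% of all probes. Without arrays 3 and 4 of both groups 20 members and 8.38% of all probes passed as higher, and without arrays 5 and 6 there were 18 and 7.92%.

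The group of nuclear RNA, DNA and chromatin factors held 4 members, of which 3 also had a higher deposited mean in pStau. AT3G11960 belongs to the family of the A subunit of the cleavage and polyadenylation specificity factor, the complex that trims messenger RNA before the poly(A) tail is added. Its normalized intensities on arrays 1 to 6 were 0.395, 0.368, 0.353, 0.349, 0.465 and 0.545 in pStau, against 0.201, 0.197, 0.162, 0.189, 0.251 and 0.256 in H2O. The groups did not overlap, and arrays 5 and 6 were the highest in both. The log2 change was 0.94, 1.0 and 0.99 in the 3 array pairs, so that this gene had the highest smallest change of all members, and it averaged 0.98 (log2 level -1.30 ± 0.26 in pStau and -2.28 ± 0.25 in H2O, SD, n = 6 each). As deposited, however, its changes in those pairs were 0.65, -0.16 and 0.03.

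APTX encodes a relative of aprataxin, which in human cells removes adenylate from broken DNA ends left by failed ligation. APTX had normalized intensities of 1.06, 0.959, 0.973, 0.716, 0.607 and 0.711 on the pStau arrays, against 0.430, 0.402, 0.463, 0.328, 0.416 and 0.318 on the H2O arrays. The lowest pStau array was above the highest H2O array, and pStau arrays 1 to 3 were the brightest. Its log2 change averaged 1.08 (level -0.28 ± 0.32 in pStau and -1.36 ± 0.22 in H2O, SD, n = 6 each) and was 1.28, 1.1 and 0.85 in the array pairs.

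AT3G07790 encodes a protein like DGCR14, which in human cells is a nuclear protein found with the splicing machinery. AT3G07790 had normalized intensities of 0.983, 1.11, 1.35, 1.19, 0.939 and 0.958 in pStau, against 0.329, 0.310, 0.717, 0.477, 0.536 and 0.519 in H2O. Arrays 1 and 2 of H2O were the lowest and gave that pair the largest change, at 1.71, with 1.12 and 0.85 in the other pairs. The mean change was 1.22, or 2.34-fold, and as deposited it was 0.84, the highest deposited change of the members. AT2G38950, a jumonji-type protein of the family of histone demethylases, was the member nearest to the threshold, with changes of 0.74, 0.30 and 0.76. Its normalized intensity had a lowest, median and highest value of 0.224, 0.345 and 0.392 in pStau, against 0.161, 0.217 and 0.325 in H2O, so the groups overlapped.

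Members that act on RNA in plastids and mitochondria numbered 3. AT3G49740 and AT3G22150 encode pentatricopeptide repeat proteins, a large plant family that binds organelle transcripts in a sequence-specific way and takes part in their editing, splicing and stability. AT3G49740 had normalized intensities of 0.216, 0.188, 0.430, 0.346, 0.321 and 0.306 in pStau, against 0.135, 0.10, 0.187, 0.198, 0.195 and 0.192 in H2O. Arrays 1 and 2 were the dimmest of both groups, and pStau array 2 fell within the H2O range, so the groups overlapped. The mean log2 change was 0.83 (level -1.79 ± 0.45 in pStau and -2.62 ± 0.40 in H2O, SD, n = 6 each).

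AT3G22150 had normalized intensities of 0.185, 0.189, 0.211, 0.291, 0.284 and 0.268 in pStau, against 0.102, 0.138, 0.163, 0.136, 0.115 and 0.0908 in H2O. There the groups did not overlap, and the change was largest in arrays 5 and 6, at 1.43, with 0.66 and 0.74 in the other pairs. AT3G18870 belongs to the family of mitochondrial transcription termination factors, whose plant members act in organelle gene expression. It had a lowest, median and highest normalized intensity of 0.275, 0.447 and 0.458 in pStau, against 0.205, 0.223 and 0.269 in H2O, with no overlap. The mean log2 change was 0.76 after normalization and -0.04 as deposited, and none of the 3 had a higher deposited mean in pStau: AT3G49740 was at -0.04 and AT3G22150 at -0.06.

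**Figure D2:**
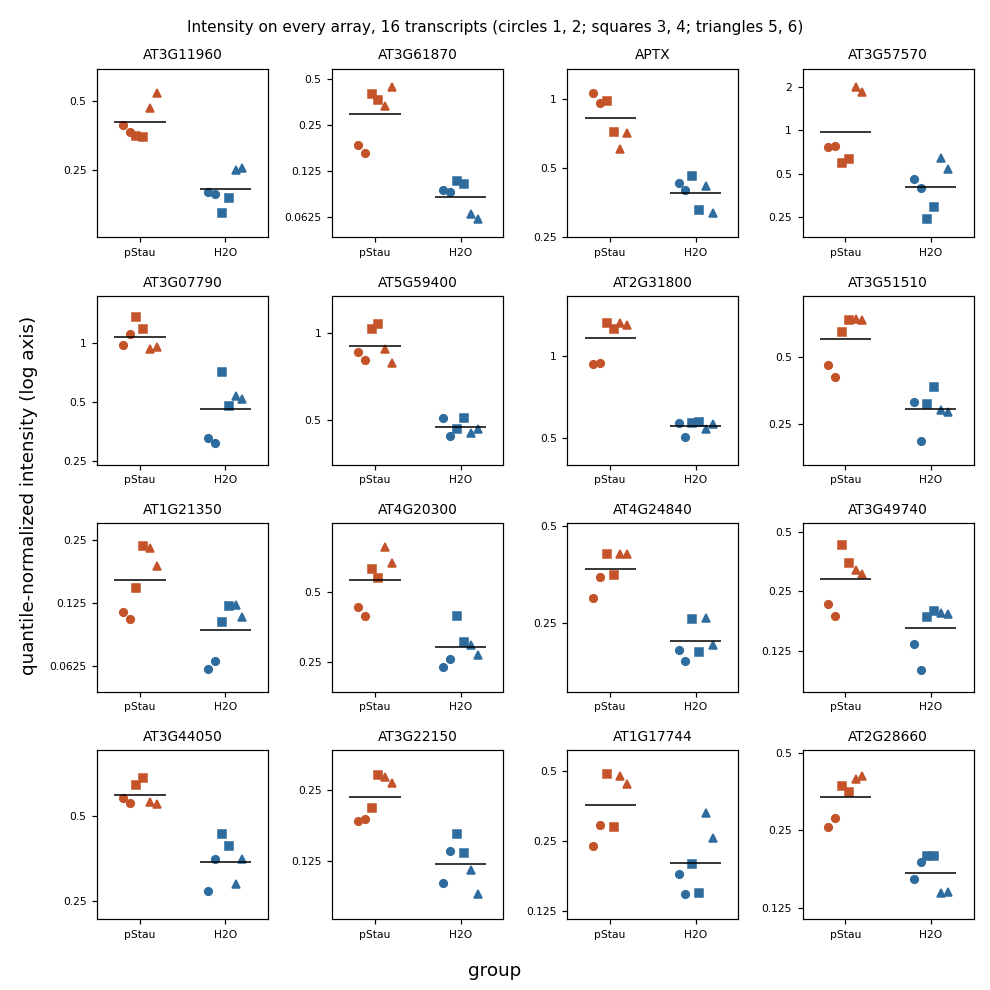
Quantile-normalized intensity on every array (y axes, log scale) for the 16 members with the highest smallest change, with pStau left of H2O. Circles are arrays 1 and 2, squares 3 and 4, triangles 5 and 6, and the bar is the mean of the log2 values. AT2G31800 and AT5G59400 show narrow H2O groups well below pStau, and AT3G57570 shows groups that overlap, with pStau arrays 5 and 6 at 2.0 and 1.84.

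Signalling and defence proteins made up 5 members, of which 4 had a higher deposited mean in pStau. AT2G31800 encodes a protein kinase of the integrin-linked kinase family, related to the Raf-like kinases of plants. As a kinase AT2G31800 is of the protein class that staurosporine targets, but whether the drug acts on it was not tested. Its normalized intensities were 0.935, 0.942, 1.31, 1.25, 1.31 and 1.29 in pStau, against 0.566, 0.504, 0.570, 0.572, 0.542 and 0.562 in H2O. The H2O arrays lay close together, and every pStau array was above them, also on the deposited scale. The log2 change was 1.07 (level 0.22 ± 0.24 in pStau and -0.86 ± 0.07 in H2O, SD, n = 6 each), and 0.81, 1.17 and 1.24 by array pair. As deposited it was 0.58, 0.77 and 0.92, so AT2G31800 met the threshold on that scale too.

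GLR2.7 is a glutamate receptor-like channel, of a family that carries calcium and other cations. Its lowest, median and highest normalized intensities were 0.354, 0.626 and 0.851 in pStau, against 0.214, 0.367 and 0.615 in H2O. Arrays 3 and 4 were the dimmest and arrays 5 and 6 the brightest in both groups, so the groups overlapped although each pStau array was above the H2O array of its number. The log2 change was 0.69 ± 0.30 (SE, n = 6 each).

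AT1G72890 is of the TIR-NBS class of immune receptor proteins, and AT3G12000 is related to the S-locus glycoproteins, which in Brassica act in pollen recognition. AT1G72890 had a lowest, median and highest normalized intensity of 0.439, 0.626 and 0.863 in pStau, against 0.290, 0.40 and 0.409 in H2O. AT3G12000 was brighter, at 1.03, 1.34 and 1.42 in pStau, against 0.616, 0.850 and 0.939 in H2O. The groups overlapped in neither gene after normalization, and for AT3G12000 they did not overlap as deposited either. AT5G40140, a U-box protein with armadillo repeats of a family of ubiquitin ligases, had a change of 0.34, 0.50 and 1.06 by array pair, and pStau array 4, at 0.148, lay inside the H2O range of 0.141 to 0.210.

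A single cytoskeletal protein, AT3G44050, was among the members. It encodes a kinesin of the kinesin-12 family, motor proteins of microtubules that act in cell division. It had normalized intensities of 0.579, 0.558, 0.646, 0.682, 0.560 and 0.552 in pStau, against 0.272, 0.354, 0.433, 0.392, 0.289 and 0.353 in H2O. The pStau arrays were close together and all above the H2O arrays. The log2 change was 0.79 (level -0.75 ± 0.13 in pStau and -1.54 ± 0.26 in H2O, SD, n = 6 each), with 0.87, 0.69 and 0.80 by array pair. As deposited the changes of AT3G44050 were 0.60, -0.10 and -0.10, and its groups overlapped. A kinesin left out by name, AT3G20150, had normalized changes of 0.86, 1.18 and 1.43.

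Plastid and metabolic proteins, most of them enzymes, were the largest group with a stated role, 8 members. Of these, 4 had a higher and 4 a lower deposited mean in pStau. How common such proteins are among the eligible probes is not known. AT1G78620 encodes the plastid kinase of phytyl phosphate, which recycles the phytol of chlorophyll for tocopherol synthesis. The lowest, median and highest normalized intensities of AT1G78620 were 1.33, 1.43 and 1.57 in pStau, against 0.614, 0.943 and 1.05 in H2O. Every pStau array was above every H2O array, as deposited too. Its changes by array pair were 0.53, 1.15 and 0.56, and the large middle value went with H2O arrays 3 and 4, which were the dimmest of their group.

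AT4G27250, of the Rossmann-fold family of NAD(P)-binding enzymes, was the brightest member in H2O. Its values were 1.45, 2.06 and 2.09 in pStau (lowest, median and highest normalized intensity), against 0.806, 1.38 and 1.52 in H2O. The change was 0.58 after normalization and 0.63 as deposited, and AT4G27250 was a member whose deposited groups did not overlap while the normalized groups did, through pStau array 2 at 1.45. APS4 is an ATP sulfurylase, which activates sulfate as the first step of its assimilation. Its log2 change was 0.63, 0.40 and 0.44 by array pair after normalization, and 0.35, -0.60 and -0.35 as deposited.

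AT2G28660, annotated in Arabidopsis as a plastid-targeted copper chaperone, had normalized intensities of 0.257, 0.278, 0.372, 0.351, 0.394 and 0.406 in pStau, against 0.161, 0.188, 0.198, 0.198, 0.143 and 0.143 in H2O. The groups did not overlap. The change of 0.99 averaged 0.62, 0.87 and 1.48 by array pair. AT1G21350, of the thioredoxin superfamily of redox proteins, was dim, at 0.113, 0.105, 0.148, 0.236, 0.228 and 0.188 in pStau, against 0.0606, 0.0658, 0.102, 0.122, 0.123 and 0.107 in H2O. Arrays 1 and 2 were the lowest of both groups, which made the groups overlap although the 3 changes were close, at 0.79, 0.75 and 0.86. As deposited they were 0.48, -0.71 and -0.60.

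AT2G39000, an acetyltransferase of the GNAT family found in plastids, had a lowest, median and highest normalized intensity of 0.250, 0.487 and 0.574 in pStau, against 0.182, 0.221 and 0.229 in H2O. No array of the groups overlapped, and the change of 1.0 was made up of 0.44, 1.29 and 1.27. AT4G39230, a reductase of the phenylcoumaran benzylic ether type in phenylpropanoid metabolism, changed by 1.02, 0.55 and 1.07. AT3G27110, a peptidase of the M48 family located to plastoglobules, the lipid bodies of thylakoids, changed by 0.37, 0.33 and 1.36. Both are dim and overlapped between groups, and as deposited they averaged -0.14 and -0.46, the second being the lowest deposited change of any member.

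Members of the secretory pathway and the cell wall numbered 5, and none had a higher deposited mean in pStau. AT4G24840 encodes a subunit of the conserved oligomeric Golgi complex, which tethers vesicles at the Golgi. It had normalized intensities of 0.298, 0.346, 0.409, 0.351, 0.411 and 0.411 in pStau, against 0.205, 0.190, 0.257, 0.203, 0.259 and 0.214 in H2O. The groups did not overlap and the pairs were even, at 0.70, 0.73 and 0.80, with a mean of 0.75 (level -1.44 ± 0.19 in pStau and -2.19 ± 0.19 in H2O, SD, n = 6 each).

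AT1G34270 and AT3G57630 belong to the exostosin family of glycosyltransferases, and the second adds arabinose to extensins, structural proteins of the wall. AT1G34270 had a lowest, median and highest normalized intensity of 0.208, 0.235 and 0.380 in pStau, against 0.157, 0.169 and 0.204 in H2O, with no overlap. AT3G57630 had 0.117, 0.294 and 0.379 in pStau, against 0.0764, 0.221 and 0.263 in H2O. Its changes of 0.43, 0.47 and 0.48 were even across array pairs, whereas arrays 1 and 2 were far below the others in both groups, so the overall SE of 0.37 was wide beside the mean of 0.46. CSLA01, a member of the cellulose synthase-like A family that makes mannan backbones, had log2 differences of 0.48, 0.42 and 0.75. Its pStau array 2, at 0.267, was below H2O array 2, at 0.294. PRA1.B3, a prenylated Rab acceptor of the endomembrane system, had differences of 0.50, 0.53 and 1.12, with an SE of 0.36 for the mean of 0.72.

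**Figure D3:**
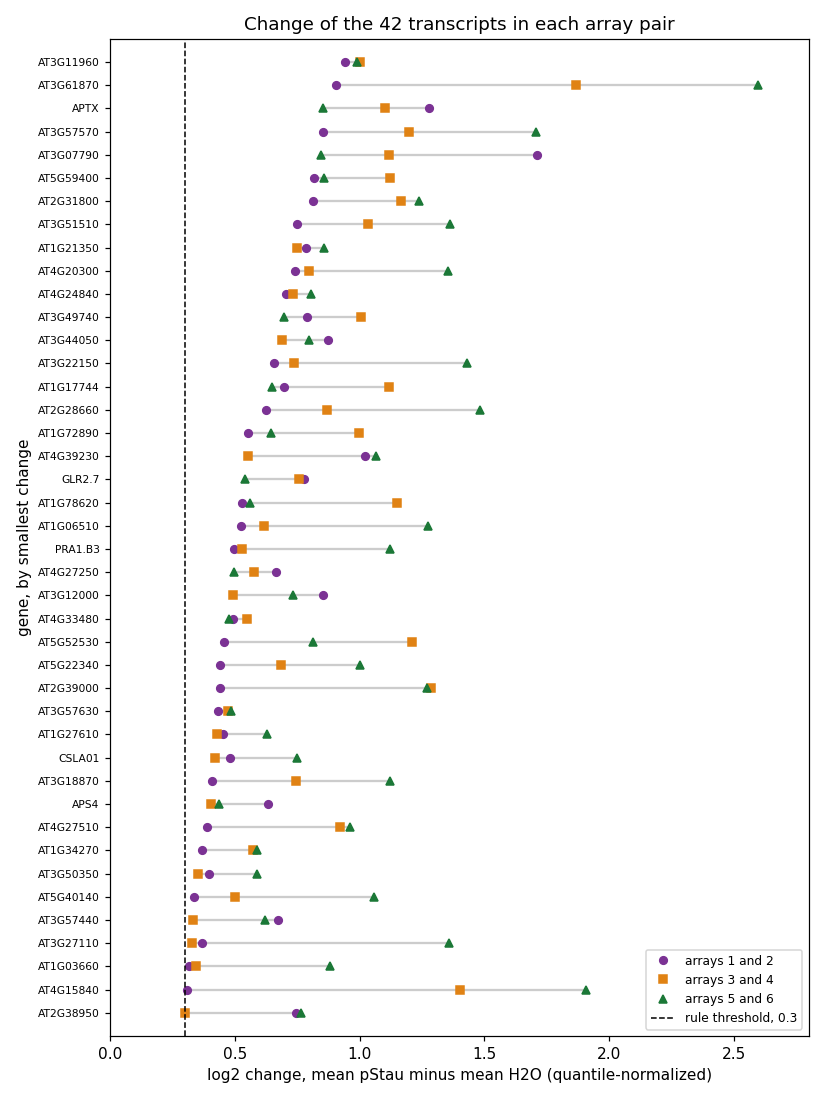
Log2 change (x axis, mean pStau minus mean H2O after normalization) of each of the 42 members (rows, by smallest change) in arrays 1 and 2, 3 and 4, and 5 and 6, with the threshold of 0.3 as a dashed line. The triangles of arrays 5 and 6 are the highest in 25 members, and AT3G61870 shows the widest run, with 0.90 to 2.60.

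Proteins known mainly by a domain included AT3G57570, with armadillo-type repeats, and AT4G15840, with a BTB/POZ domain, and both had a higher deposited mean in pStau. AT3G57570 had normalized intensities of 0.763, 0.777, 0.590, 0.634, 2.0 and 1.84 in pStau, against 0.459, 0.397, 0.242, 0.295, 0.641 and 0.538 in H2O. Arrays 5 and 6 were the brightest of both groups and arrays 3 and 4 the dimmest, so the groups overlapped, while the change was 0.85, 1.2 and 1.71 by array pair. AT4G15840 had 0.314, 0.484 and 0.579 as its lowest, median and highest values in pStau, against 0.131, 0.206 and 0.266 in H2O, without overlap. Its changes of 0.31, 1.40 and 1.91 placed it just inside the threshold through arrays 1 and 2, and its mean change of 1.2 was 1.65 without them.

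For 14 members no role is stated here, and 10 of them had a higher deposited mean in pStau. The largest change of all 42 was in this group. AT3G61870 had normalized intensities of 0.183, 0.163, 0.40, 0.365, 0.334 and 0.440 in pStau, against 0.0941, 0.0905, 0.107, 0.103, 0.0657 and 0.0609 in H2O. The lowest pStau array was above the highest H2O array on the normalized and the deposited scale, and the fold was 3.46 (log2 level -1.77 ± 0.61 in pStau and -3.56 ± 0.34 in H2O, SD, n = 6 each). AT3G61870 was also the dimmest member in H2O, at the 17.6 percentile of all 3439 probes.

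AT5G59400 had normalized intensities of 0.858, 0.805, 1.03, 1.07, 0.877 and 0.784 in pStau, against 0.508, 0.438, 0.463, 0.505, 0.450 and 0.465 in H2O. Its groups did not overlap on either scale, and its SD was small, 0.19 in pStau and 0.09 in H2O, beside a change of 0.93. AT3G51510 had 0.461, 0.404, 0.646, 0.728, 0.735 and 0.733 in pStau, against 0.314, 0.210, 0.307, 0.365, 0.288 and 0.283 in H2O, a change of 1.05 with no overlap.

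AT4G20300 had 0.434, 0.394, 0.630, 0.578, 0.781 and 0.668 in pStau, against 0.238, 0.257, 0.396, 0.304, 0.297 and 0.270 in H2O. The groups met at pStau array 2 and H2O array 3, and the change was 0.96. AT1G17744 had 0.238, 0.293, 0.485, 0.289, 0.476 and 0.442 in pStau, against 0.180, 0.148, 0.20, 0.149, 0.331 and 0.258 in H2O, with overlap and a change of 0.82. The remaining members without a stated role were AT5G52530, AT1G06510, AT4G27510, AT5G22340, AT3G57440, AT1G03660, AT4G33480, AT1G27610 and AT3G50350. Among these AT5G52530 had the largest mean change, 0.83, and AT3G50350 the smallest, 0.44. AT4G33480 had changes of 0.49, 0.55 and 0.48 and the smallest SE of all members, 0.06 (n = 6 each). As deposited its changes were 0.24, -0.27 and -0.35.

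The members differed in how the array pairs ranked. Arrays 1 and 2 gave the smallest change in 24 members, arrays 3 and 4 in 11 and arrays 5 and 6 in 7, while the largest was in arrays 5 and 6 for 25. The median change over members was 0.64, 0.74 and 0.85 in the 3 pairs, against -0.03, -0.14 and 0.0047 over the eligible probes. The spread of changes over the eligible probes (SD) was 0.47, 0.82 and 0.92 in these pairs, so a change of 0.3 was larger beside the spread in arrays 1 and 2 than in the others. Just inside the threshold, AT2G38950, AT4G15840, AT1G03660 and AT3G27110 had smallest changes of 0.30, 0.31, 0.32 and 0.33. Just outside it, AT2G26680, AT1G62780, RAP74 and AT1G79480 had 0.28, 0.27, 0.27 and 0.27.

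**Figure D4:**
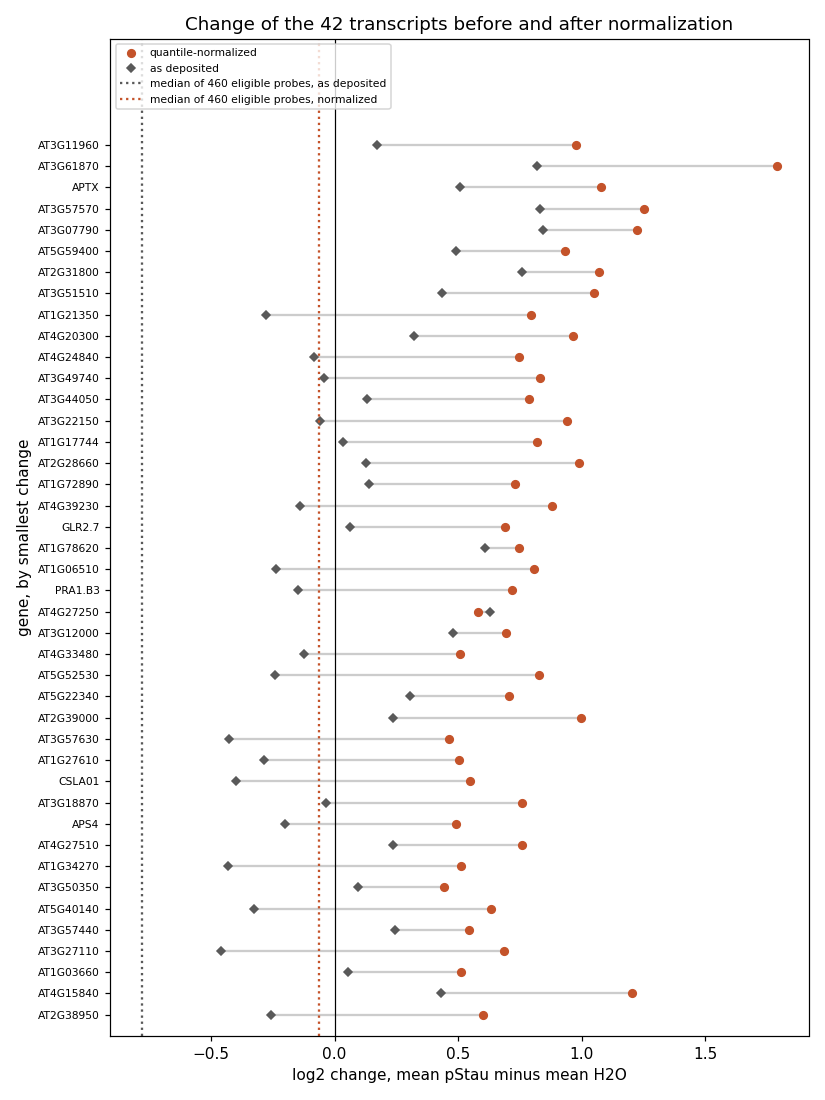
Log2 change (x axis, mean pStau minus mean H2O) of each of the 42 members (rows) after quantile normalization (circles) and as deposited (diamonds), with the medians of the 460 eligible probes as dotted lines. Circles lie between 0.44 and 1.79, diamonds between -0.46 and 0.84, and all diamonds lie to the right of the deposited median of -0.78.

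On the deposited scale, 6 members had a change of 0.3 or more in every array pair, namely AT3G61870, AT3G57570, AT3G07790, AT2G31800, AT1G78620 and AT4G27250. All 6 pStau arrays were above all 6 H2O arrays on that scale for 7 members, where 2.17% of the eligible probes showed this. These were AT3G61870, AT3G07790, AT5G59400, AT2G31800, AT1G78620, AT4G27250 and AT3G12000. As deposited, 13 members were higher in pStau in every array pair, so for the others a rise in every pair rests on the normalization. Among those others, 18 had a lower deposited mean in pStau, and for these the direction of the mean change rests on the normalization too. The shares of eligible probes that met these deposited criteria in every array pair are not given here. A higher deposited mean, which either criterion implies, was found for 62 of the 460 eligible probes.

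In water the members tended to be dimmer than the other eligible probes. Their median percentile among all probes by H2O mean was 37.7, and that of the 460 eligible probes was 55.4. Of the members 26, or 61.9%, were at or below the middle percentile of all probes, against 42.2% of the eligible ones, and 71 eligible probes that fell by 0.3 or more in every pair had a median percentile of 65.8. The level in water is one side of the contrast that chose the members, so this is a description. The SD between consecutive H2O arrays had a median of 0.18 on the log2 scale for members and 0.14 for eligible probes, and between array pairs of H2O it was 0.27 and 0.24. In pStau the order was reversed for consecutive arrays, at 0.14 for members and 0.18 for eligible probes. Between array pairs of pStau it was 0.40 and 0.34.

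**Figure D5:**
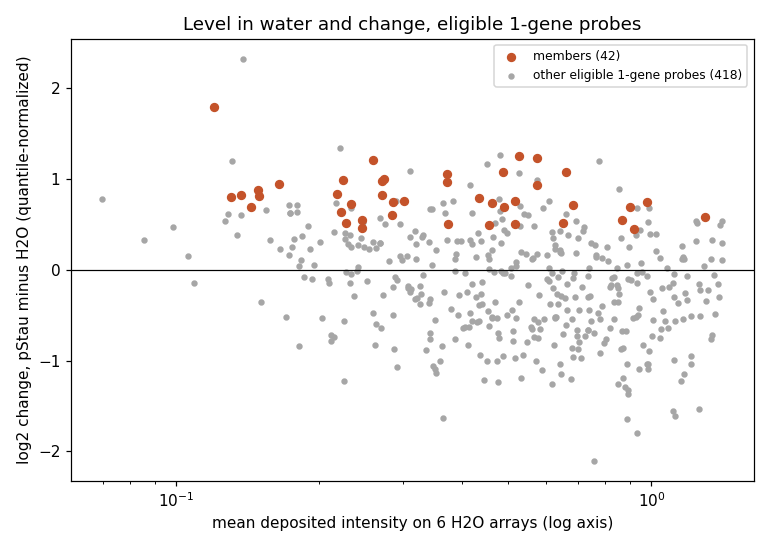
Log2 change after normalization (y axis) against the mean deposited intensity on the 6 H2O arrays (x axis, log scale) for the 42 members and the other 418 eligible probes. Members lie between 0.44 and 1.79 and from 0.120 to 1.30 in intensity, and 5 of them are in the range above the 75 percentile of all probes.

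Among probes above 0 on all arrays, a change of 0.3 or more in every pair was found for 50 of 530 probes with 1 gene, or 9.43%, for 99 of 684 probes with several genes, or 14.5%, and for 191 of 1427 probes without a gene, or 13.4%. The opposite change was found for 14.9%, 14.6% and 12.5% of these. Over all 2641 such probes the shares were 12.9% rising and 13.6% falling, on a scale that gives every array one distribution. In the fit to the table as deposited, limma called 183 of 3256 probes higher and 1519 lower.

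By gene identifier, 14 of the 42 members lay on chromosome 3, or 33.3%, against 18.9% of the eligible probes. The share of eligible probes that were members was 16.1% on chromosome 3 and between 5.75% and 9.52% on the others. A few members were neighbours in the gene order of the RefSeq assembly TAIR10.1. AT2G38950 and AT2G39000 had 3 protein-coding genes between them, as did AT3G11960 and AT3G12000. AT3G57440, AT3G57570 and AT3G57630 followed each other with 13 and 6 genes between them. Their normalized profiles differed, since AT3G57570 was far brighter on pStau arrays 5 and 6 than on the others and AT3G57440 was not.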

How the data were processed

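The deposited table holds processed array intensity values, 1 column per sample, taken as linear since the authors' unit, background correction and scaling are not given in the sources used here. Array medians were 0.169 to 0.392 in pStau and 0.405 to 0.485 in H2O, and zeros made up 12.3% to 17.3% and 11.5% to 13.1% of values. The number of arrays limits the precision, and since nothing in the labels says that the arrays came from separate plants, any p-value reflects the spread of these arrays, technical or not. Groups came from the sample titles. Gene names came from GEO's platform annotation, whose symbols may be outdated; 692 probes carry 1 gene, 870 several and 1877 none. By gene ID, 690 of the 692 were found in the RefSeq table, and 41 of the 42 members did.

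Zeros were left out of the quantile normalization, and for the fit zeros and values under the 1st percentile (0.0167) were set to that value. No member value lay under it. The 3256 probes above 0 on any array were fitted with lmFit and eBayes in limma 3.58.1 (R 4.3.3), two-sided, with Benjamini-Hochberg adjustment. The fit was run on simulated data with independent noise on every array, so that run says nothing about the likeness of consecutive arrays. Figures used matplotlib 3.10.9 in Python 3.11.15. The members and lists were chosen with earlier results of these data known, and roles were assigned from general knowledge of the genes after the members were known, because the tables used hold no gene descriptions and the planned keyword classes could not be made. All members are named, and the 16 with the highest smallest change have all 12 values. Same-numbered arrays of the 2 groups deviated together from their group means (r between 0.217 and 0.483 for the 6 numbers, each over 0.1), so the number appears to pair them; the labels do not say how. The fit and the SEs given are without this pairing, and the fit with it is an alternative. They also take consecutive arrays of a group as independent, although these were alike. Alternatives covered other scalings, floors, dim probes, blocks, averaged or left-out arrays, the variance model and the rule's threshold.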

Additional observations from a re-analysis of the deposited data

Results flagged for a closer look

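Within 6 arrays of a group, a lone array can lie far from the rest, and the gap to its nearest neighbour was set against the group's whole range, by Dixon's test. Of 84 groups of 6 looked at, 4 were past its critical value, where chance gives about 1 in 20. The 4 are thus near the number that chance alone would give, and they are listed as a description. The log2 level of CSLA01 was -3.12 on pStau array 1, against -1.94 on the next array, and -4.22 on H2O array 1, against -2.61 on the next, so the same array number stood apart in both groups. AT1G34270 had -1.40 on pStau array 3, against -2.01 on the next array. AT2G38950 had -2.16 on pStau array 2, against -1.58 on the next.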

How the results depend on the processing

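With arrays centred on their median and with cyclic loess, all 42 members were higher in pStau (median 0.91 and 0.85). All members lay above the eligible median as deposited, so centring was likely in advance to leave them higher. A floor at the 5th percentile left all 42 higher, with a median of 0.76. Since a floor keeps the order of the same normalized values, it could hardly turn a member. The blocks, the averaging, the variance model and removing dim probes (35 members left) cannot move a fitted change, and the rule asks for a positive change in every array pair, so leaving a pair out cannot turn a member; none of these bears on the direction. For the table as deposited and for equal array totals the median was 0.080 and 0.066, with 8 members passing in each and 1808 probes called in the second (183 probes higher as deposited and 180 with equal totals, against 536 of 1148 called). With consecutive arrays as a random block (correlation 0.708), 523 probes passed, 260 of them higher, and 20 members passed as higher. Averaging them left 3 probes, 1 of them higher, and 0 members, and the array set as a block besides left 0 and 0. In these 2 limma fits 29 and 40 members had an unadjusted p under 0.05, against 875 and 870 of all 3256 probes in either direction. The rule chose the members on the same pair changes, so these counts restate the choice. With the replicate number as a block 1279 probes passed, 600 of them higher, and all 42 members passed as higher. Without arrays 1 and 2, 3 and 4, or 5 and 6 of both groups, 1335, 484 and 515 probes passed. Of these 610, 273 and 258 were higher, or 18.7%, 8.38% and 7.92% of all probes tested. As higher, 35, 20 and 18 members passed, with member medians of 0.84, 0.76 and 0.73. The rule gave 21 genes at a threshold of 0.5, 6 on the table as deposited, 70 (38 of them members) with arrays centred on their median and 43 (40 of them members) after cyclic loess. The causes were not tested. The 18 members that turned were, as deposited and with equal totals: APS4 -0.20 and -0.22, AT1G06510 -0.24 and -0.25, AT1G21350 -0.28 and -0.29, AT1G27610 -0.29 and -0.30, AT1G34270 -0.43 and -0.45, AT2G38950 -0.26 and -0.27, AT3G18870 -0.035 and -0.049, AT3G22150 -0.061 and -0.075, AT3G27110 -0.46 and -0.48, AT3G49740 -0.043 and -0.057, AT3G57630 -0.43 and -0.44, AT4G24840 -0.083 and -0.10, AT4G33480 -0.12 and -0.14, AT4G39230 -0.14 and -0.16, AT5G40140 -0.32 and -0.34, AT5G52530 -0.24 and -0.25, CSLA01 -0.40 and -0.41, PRA1.B3 -0.15 and -0.16.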
